A study of Mus musculus with 20 samples.

Results

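The genes described here are Prph, Fez1, Pcp4l1, Ndrg2, Cyb561, Fxyd1, Crip1 and Angptl7, 8 of the 14299 genes in the deposited table of counts. They were listed as genes of neural type that are abundant in E2-responsive cells of the ovarian surface epithelium (OSE), and they were chosen by their higher reads in those cells than in cluster 1 cells of these same libraries. The difference between clusters of cells, on which the choice rests, is therefore given as a description without a test. The change with E2, which the rule did not use, is tested, although earlier results of these data were known when the genes were listed.

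The OSE is the outer cell layer of the ovary, and E2, or estradiol, is an estrogen. Primary mouse OSE cells went without hormone for 48 hours and then received 100 nM E2 for 15 days or, as the control, ethanol vehicle (0.0002%). Capture of the cells used 1 Fluidigm C1 chip, where each of 20 columns gave 1 cDNA library, with control cells in one inlet and E2-treated cells in the other. The study asked which OSE cells respond to E2, and its clustering at k = 2 separated cluster 1, the cells that did not spread by treatment, from the remainder, called responsive cells here. Mouse strain and age for these cultures are not given in the sources used here. Each condition was 1 suspension of cells, so the libraries share a culture, and p-values measure the spread between libraries and not between cultures or animals. A difference between E2 and control cannot be told apart from a difference between the 2 suspensions.

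Several of these genes are best known from nervous tissue. Peripherin, the product of Prph, is an intermediate filament protein of peripheral neurons, Fez1 is an adaptor that links cargo to kinesin for transport along axons, and Pcp4l1 is a small protein related to a Purkinje cell protein that regulates calmodulin. Ndrg2 belongs to a family of hydrolase-like proteins and is abundant in astrocytes, and Cyb561 is an electron carrier in the membrane of neurosecretory granules, where it regenerates ascorbate. Fxyd1, or phospholemman, regulates the sodium pump in heart, muscle and brain. Crip1, a small LIM domain protein first described in the intestine, and Angptl7, a secreted angiopoietin-like glycoprotein known from the eye, are known mainly from other tissues.

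The tables held 589 cells, all from capture sites seen to hold 1 cell. Responsive cells numbered 203 in 10 control libraries, with 15 to 25 cells each, and 218 in 9 E2 libraries, with 17 to 30 each. Cluster 1 held 126 control cells, 8 to 18 per library, and 42 E2-treated cells, of which 39 in 7 libraries of 3 to 9 cells entered the sums. Column 13, an E2 column, was not analysed here. The median number of reads per responsive cell was 143233 in control and 117809 with E2, and in cluster 1 it was 112126 and 87632. The median share of mitochondrial reads was 2.08%, 2.43%, 2.53% and 3.55% in the same order. All libraries use the same 40 site barcodes, so a barcode shared between libraries does not mark a shared cell. E2 library 15 stood apart. Over 5484 genes, its median Pearson correlation with the other E2 libraries was 0.641, against 0.813 to 0.851 for those and 0.809 to 0.864 for the control libraries, and the main tests of E2 for the 8 genes are also given without it. Levels are given as CPM, the reads of a library and cluster as a sum, scaled by TMM library size. CPM are not per length and are compared between samples and not between genes.

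The neural label was checked against 25 neuron markers, of which 6 were in the table. Mapt, Syp and Elavl3 had a read in 3.45%, 1.48% and 4.93% of control responsive cells. Uchl1, a deubiquitinase abundant in neurons, had a read in 86.2% of them, Ncam1 in 30.05% and Ina, a neuronal intermediate filament, in 6.90%. The summed level of the list, here and below as CPM of all reads without TMM, was 146 to 341 CPM in control and 203 to 459 CPM in E2 responsive libraries, and 40.7 to 163 CPM and 21.1 to 325 CPM in cluster 1. Uchl1 had a read in 38.9% of control cluster 1 cells and differed by -2.85 (log2) between cluster 1 and responsive cells. Of 12 glia markers 5 were in the table. Slc1a3, a glutamate transporter of astrocytes, had a read in 59.1% of control responsive and 37.3% of control cluster 1 cells, and Mbp, a myelin protein, in 67.0% and 63.5%. Since Mapt, Syp and Elavl3 were in under 5% of control responsive cells while Uchl1 and Slc1a3 were more common, the label is not used for the cells, and the genes are called the 8 genes below.

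All 8 genes were placed on GRCm38 with GENCODE release M21. Prph lies at chr15:99055174-99058978 on the plus strand, Fez1 at chr9:36821864-36878924 on the plus strand, Pcp4l1 at chr1:171173262-171196268 on the minus strand and Ndrg2 at chr14:51905271-51914158 on the minus strand. Cyb561 lies at chr11:105933702-105953336 on the minus strand, Fxyd1 at chr7:31051678-31057199 on the minus strand, Crip1 at chr12:113146316-113153879 on the plus strand and Angptl7 at chr4:148495183-148500460 on the minus strand. Cyb561 overlaps Gm9910, and Angptl7 lies within Mtor, in each case on opposite strands. No Angptl7 exon overlaps an exon of Mtor in this annotation. Whether strand was used in counting is not given in the sources used here.

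RefSeq promoter windows on GRCm38.p6 were available for 7 of the 8 genes, in 11 windows, and the 250 bases before each start were searched on both strands. The windows of the 4 genes called with E2 in responsive cells are shown, so that the letters searched can be read in place. For Ndrg2, which has 3 annotated starts, the window that holds AGGTCA is shown. Capitals mark the core of the estrogen response element, the TATA box and the GC box, on either strand, with the letters given after the sequences.
Prph, chr15:99054924-99055173, plus strand: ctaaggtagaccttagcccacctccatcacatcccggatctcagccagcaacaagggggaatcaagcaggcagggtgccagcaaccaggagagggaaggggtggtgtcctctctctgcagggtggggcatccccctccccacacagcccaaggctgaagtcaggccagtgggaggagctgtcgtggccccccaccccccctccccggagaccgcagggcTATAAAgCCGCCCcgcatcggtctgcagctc
Pcp4l1, chr1:171196269-171196518, minus strand: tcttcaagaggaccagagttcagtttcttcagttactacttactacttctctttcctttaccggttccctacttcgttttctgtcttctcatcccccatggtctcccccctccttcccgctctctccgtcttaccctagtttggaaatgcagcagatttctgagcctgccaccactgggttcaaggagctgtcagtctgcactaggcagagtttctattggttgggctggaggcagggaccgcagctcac
Ndrg2, chr14:51913489-51913738, minus strand: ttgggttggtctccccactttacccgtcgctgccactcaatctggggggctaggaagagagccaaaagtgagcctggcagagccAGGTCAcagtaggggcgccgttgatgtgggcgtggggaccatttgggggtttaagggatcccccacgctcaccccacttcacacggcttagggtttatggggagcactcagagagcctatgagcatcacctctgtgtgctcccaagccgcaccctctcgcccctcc
Angptl7, chr4:148500463-148500712, minus strand: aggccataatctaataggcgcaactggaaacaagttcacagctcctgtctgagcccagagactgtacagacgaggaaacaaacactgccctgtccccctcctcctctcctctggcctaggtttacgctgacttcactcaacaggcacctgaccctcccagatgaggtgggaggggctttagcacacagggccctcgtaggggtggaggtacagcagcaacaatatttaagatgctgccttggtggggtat
The full estrogen response element (AGGTCA, a gap of 3 bases, then TGACC) was in 0 of the 11 windows and in 0.0517% of 32851 windows over all genes. Its core AGGTCA, which is part of the full element and also occurs alone, was in 1 of the 11 windows, that of Ndrg2, at 166 to 161 bases before the start, and in 4607 of all 32851 windows. The TATA box TATAAA lay 31 to 26 bases before the start of Prph, beside a GC box GGGCGG at 24 to 19 bases. Another window of Ndrg2 held TATAAA at 29 to 24 bases before its start, and 2 of its windows held the GC box. The TATA box was in 3 of the 11 windows and 12.4% of all windows, the GC box was in 5 of the 11 and 32.7% of all, and the windows of Pcp4l1 and Angptl7 held none of these letters. These matches describe sequence only.

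The 8 genes were lower in cluster 1 than in responsive cells of the same library in 17 of 17 libraries each, which is the property that chose them. Peripherin ranged from 892 to 1367 CPM, median 1069, in control responsive libraries, and from 10.3 to 168 CPM, median 61.8, in control cluster 1. With E2 it ranged from 537 to 953 CPM, median 733, in responsive cells and from 3.38 to 104 CPM, median 12.4, in cluster 1. No cluster 1 library reached a responsive one.

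**Figure D1:**
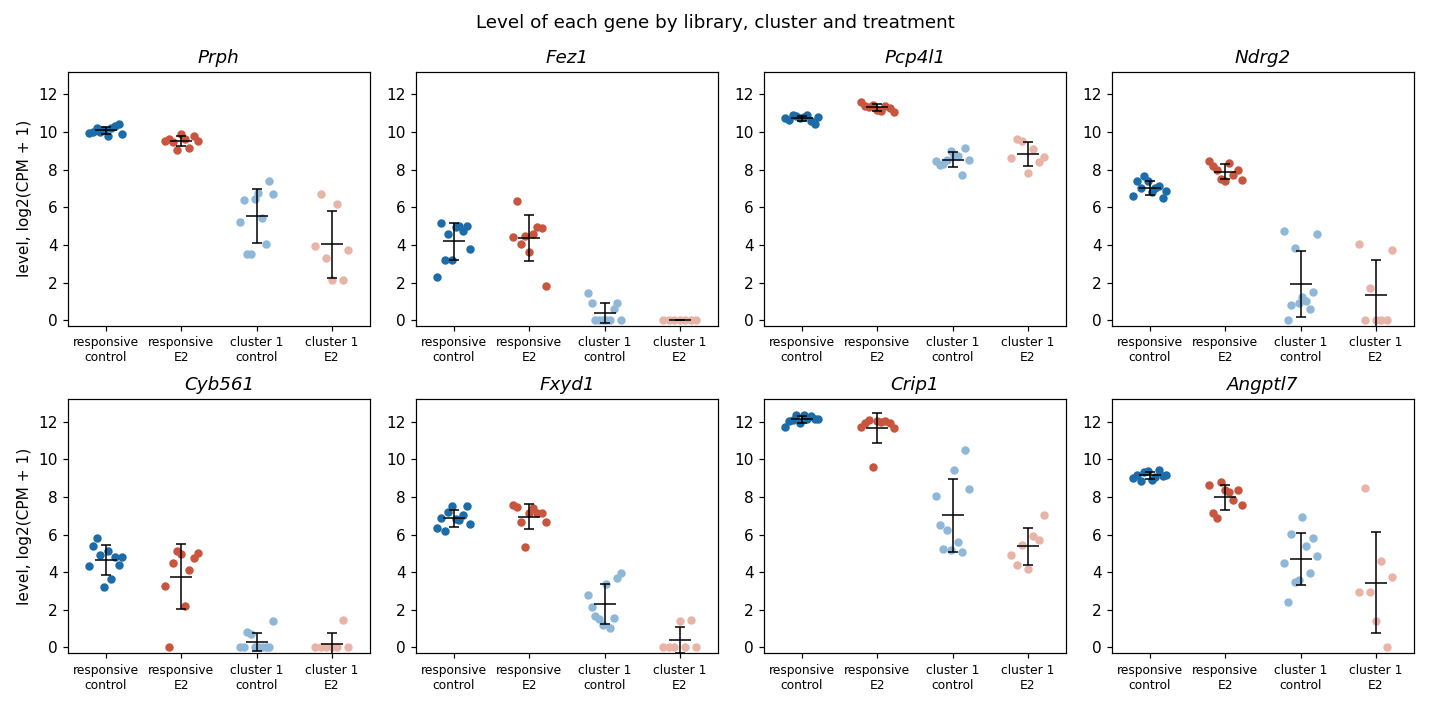
Level of each of the 8 genes as log2(CPM + 1), 1 point per library, in responsive and cluster 1 cells with control or E2 treatment, with the mean and SD of these log2 values as a bar. Responsive libraries sat above cluster 1 libraries of the same gene apart from overlaps in Cyb561, Crip1 and Angptl7, and Pcp4l1 kept the highest cluster 1 level relative to responsive cells in control.

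The depth of the drop in cluster 1 differed among the 8 genes. Pcp4l1 kept 22.3% of its mean responsive level in control cluster 1 and 19.3% in E2 cluster 1. Prph kept 6.04% and 4.17%, Crip1 6.85% and 1.41%, Ndrg2 5.02% and 1.78%, and Fxyd1 4.41% and 0.366%. Angptl7 kept 6.50% in control, and its 20.8% with E2 rested on library 15, as described below. Fez1 and Cyb561 had few reads in cluster 1. Fez1 had 5 reads in 126 control cells, 1 in each of 5 cells, and none in 42 E2-treated cells, where a count of 0 allows up to 7.14% of cells with a read (3 of 42). Cyb561 had 5 reads in 3 control cells and 1 read in 1 E2-treated cell. On the fitted scale, the difference of cluster 1 from responsive cells had a median of -4.77 (log2) over the 8 genes, against -0.06 over 10597 genes.

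For Crip1, Angptl7, Ndrg2, Fxyd1 and Prph, most of the reads that remained in cluster 1 sat in few cells. Those of Pcp4l1 were spread over 122 of 126 control cells, where the highest cell held 4.29% of 5805 reads. For Crip1, 3 of 126 control cells held the greater part of 3584 reads, and the highest held 30.4% of them, while the median cell with a read had 5 reads against 564 in control responsive cells. Control library 9, at 1468 CPM, was above E2 responsive library 15, at 762 CPM, and this was the overlap between the clusters for Crip1. For Angptl7, 1 cell of the 3 in E2 library 15 held 70.3% of the 101 reads of all E2-treated cluster 1 cells and set a level of 350 CPM there, against 0 to 23.5 CPM in the other 6 libraries. For Ndrg2, 2 of 126 control cells held the greater part of 102 reads, and the highest had 40 reads. For Fxyd1, 3 control cells held the greater part of 73 reads, and the highest held 35.6% of them. For Prph, 6 control cells held the greater part of 943 reads, and the highest E2-treated cell held 39.8% of 98 reads.

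Detection per cell separated the genes further. Pcp4l1 and Crip1 had a read in all 203 control responsive cells, and Prph in 201 (99.0%, exact 95% binomial interval 96.5 to 99.9). Angptl7 had a read in 92.6%, Fxyd1 in 87.2% and Ndrg2 in 67.5% of these cells, while Fez1 had one in 19.2% (14.03 to 25.3) and Cyb561 in 18.7% (13.6 to 24.8). Fez1 and Cyb561 were thus absent from the reads of most responsive cells, yet the cells with a read held a median of 14 and 14.5 reads. These intervals treat the cells as independent draws and leave out the spread between libraries and cultures. The reads carry no molecular identifiers.

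In control cluster 1, detection ranged from 96.8% of cells for Pcp4l1 and 96.0% for Crip1 to 2.38% for Cyb561. Prph had a read in 70.6%, Angptl7 in 46.0%, Fxyd1 in 19.05% and Ndrg2 in 15.9% of the 126 cells. At 20000 reads per cell, a depth every cell reached, Crip1 fell to 63.5% and Prph to 30.2% of control cluster 1 cells, while both stayed at 100% and 92.1% of control responsive cells. Pcp4l1 remained in 83.3% of control cluster 1 cells at that depth. Fez1 and Cyb561 had no read in any cluster 1 cell at that depth.

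**Figure D2:**
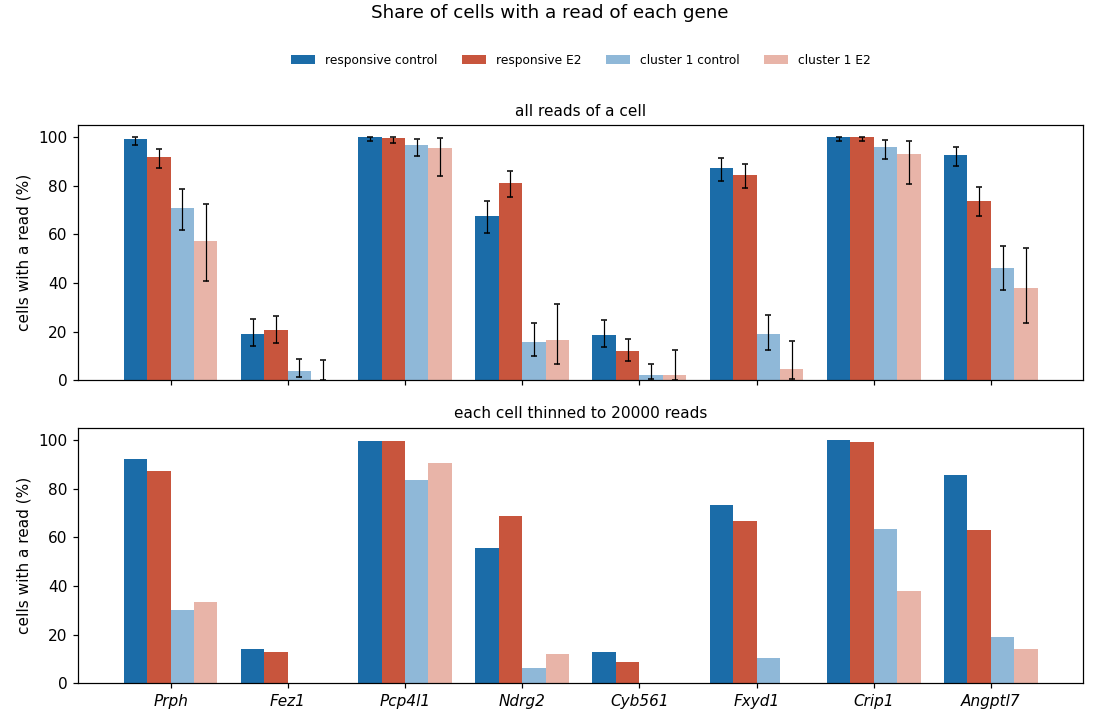
Percent of cells with a read of each gene in the 4 groups of cells, with all reads and exact 95% binomial intervals (top) and with each cell thinned to 20000 reads (bottom). Pcp4l1 and Crip1 were detected in over 92% of cells of each group with all reads, and at the fixed depth Crip1 was in 63.5% of control and 38.1% of E2 cluster 1 cells.

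Within responsive cells, 4 of the 8 genes changed with E2 in edgeR's quasi-likelihood test with Benjamini-Hochberg adjustment over 10265 genes, where 141 genes (1.37%) were called. A call needed an adjusted p under 0.05 with a log2 fold change over 0.5 in size. Pcp4l1 and Ndrg2 rose, and Prph and Angptl7 fell. Fez1, Cyb561, Fxyd1 and Crip1 did not pass the test. The change had no common direction over the 8 genes, with a median log2 fold change of -0.09 against 0.02 over all genes tested.

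Pcp4l1 ranged from 1402 to 1899 CPM, median 1743, in the 10 control libraries and from 2159 to 3066 CPM, median 2619.9, in the 9 E2 libraries. All E2 libraries were above all control libraries. CPM did not overlap between treatments for 2 of the 8 genes, Pcp4l1 and Angptl7, and for 42 of 10148 genes (0.414%). The control mean of 1713 ± 160.4 CPM (SD, n = 10) compared with 2546 ± 290.0 CPM (SD, n = 9) after E2, a log2 fold change of 0.58 (SE 0.09, edgeR adjusted p = 0.000467). Without E2 library 15 the log2 fold change was 0.57 (edgeR adjusted p = 2.11e-05).

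Ndrg2 ranged from 90.2 to 199.6 CPM, median 129.6, in control and from 166 to 347 CPM, median 248, with E2. The groups overlapped, but 6 of 9 E2 libraries were above the highest control library and all 9 were above the control median. The mean rose from 134.5 ± 34.8 CPM (SD, n = 10) to 245 ± 66.6 CPM (SD, n = 9), with a log2 fold change of 0.87 (SE 0.18, edgeR adjusted p = 0.00674). Without E2 library 15 it was 0.92 (edgeR adjusted p = 0.00194).

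Prph fell with E2. Its libraries ranged from 892 to 1367 CPM in control and from 537 to 953 CPM with E2, and 8 of 9 E2 libraries were below the lowest control library. The control mean of 1099.5 ± 153 CPM (SD, n = 10) compared with 743 ± 136 CPM (SD, n = 9) after E2, which is 1.47-fold lower on the fitted scale (log2 fold change -0.56, SE 0.12, edgeR adjusted p = 0.0122). Without E2 library 15, the lowest of the group, the log2 fold change was -0.50 (edgeR adjusted p = 0.00385).

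Angptl7 changed the most of the 4. It ranged from 467 to 700.4 CPM, median 568, in control and from 115 to 435 CPM, median 308, with E2, with no overlap between treatments. The mean fell from 571 ± 75.9 CPM (SD, n = 10) to 276 ± 112 CPM (SD, n = 9), which is 2.07-fold lower (log2 fold change -1.05, SE 0.19, edgeR adjusted p = 0.00226). Without E2 library 15, here the highest of the group, it was -1.15 (edgeR adjusted p = 0.000308). The same 4 genes were called by edgeR, DESeq2 and limma-voom and with any single library left out.

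**Figure D3:**
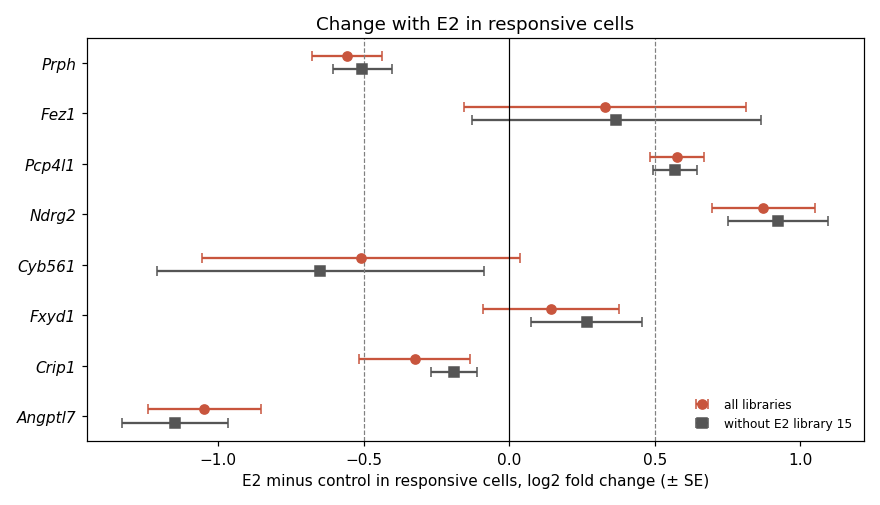
Log2 fold change of E2 against control in responsive cells from edgeR with its SE, for all 19 libraries (circles) and without E2 library 15 (squares), with dashed lines at the threshold of 0.5 in either direction. Pcp4l1 (0.58) and Ndrg2 (0.87) lay to the right, Prph (-0.56) and Angptl7 (-1.05) to the left, and the intervals of Fez1 and Cyb561 were the widest.

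Crip1 was at 3367 to 5279 CPM, median 4457, in control and at 762 to 4393 CPM, median 3898, with E2. All 9 E2 libraries were below the control median and 3 were below the lowest control library, of which library 15 stood far below the next, at 3241 CPM. The log2 fold change was -0.33 (SE 0.19, 95% interval -0.70 to 0.05, edgeR adjusted p = 0.637), and -0.19 (SE 0.08, edgeR adjusted p = 0.370) without library 15.

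Fxyd1 was at 70.8 to 180.4 CPM, median 113, in control and at 39.6 to 187 CPM, median 140.2, with E2, where the lowest was again library 15. The log2 fold change was 0.14 (95% interval -0.32 to 0.60, edgeR adjusted p = 0.923), and 0.27 (SE 0.19, edgeR adjusted p = 0.760) without library 15. The interval leaves room for a change as large as that of Pcp4l1.

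Fez1 and Cyb561 had the fewest reads and the widest intervals. Fez1 was at 3.98 to 34.2 CPM, median 24.6, in control and at 2.54 to 80.3 CPM, median 21.5, with E2. Its log2 fold change was 0.33 (95% interval -0.62 to 1.28, edgeR adjusted p = 0.914), and it was 0.37 without E2 library 15 and turned to -0.11 without E2 library 12, the highest. Cyb561 was at 8.20 to 54.6 CPM, median 26.8, in control and at 0 to 34.0 CPM, median 21.2, with E2. Its log2 fold change was -0.51 (95% interval -1.58 to 0.56, edgeR adjusted p = 0.880), with -0.65 without E2 library 15 and -1.40 (SE 0.74) in limma-voom. For both genes the libraries of the treatments overlapped throughout most of their range, and a 2-fold rise of Fez1 or a 2-fold fall of Cyb561 lies within these intervals.

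The share of responsive cells with a read changed for Ndrg2, the 1 gene of the 8 that passed this test. It was detected in 67.8% ± 8.74 of cells per control library (SD, n = 10) and in 81.6% ± 6.67 per E2 library (SD, n = 9; exact two-sided permutation of libraries, adjusted p = 0.0344 over 10265 genes). Over all genes 219 of 10265 (2.13%) were called. Angptl7 went from 92.2% ± 6.07 to 73.9% ± 12.7 (exact permutation, adjusted p = 0.0517) and Prph from 99.0% ± 2.02 to 91.6% ± 7.48 (exact permutation, adjusted p = 0.0724), and neither passed the threshold. Pcp4l1 was at 100% and 99.6%, so its higher level was within cells that had reads in both treatments.

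Control responsive cells had more reads, and of the 219 genes called, 181 had a lower share with E2. At 20000 reads per cell, the mean share over libraries was 85.7% in control and 63.4% with E2 for Angptl7 (exact permutation, adjusted p = 0.0335), 56.1% and 68.4% for Ndrg2 (exact permutation, adjusted p = 0.263) and 91.8% and 87.1% for Prph (exact permutation, adjusted p = 0.591). Angptl7 was thus the gene of the 8 that passed at a fixed depth. Without E2 library 15 none of the 8 passed with all reads, with Ndrg2 at an exact permutation adjusted p of 0.0582, Angptl7 at 0.0865 and Prph at 0.132. With at least 2 reads asked for, Angptl7 (exact permutation, adjusted p = 0.00823) and Prph (0.0484) passed and Ndrg2 (0.0616) did not. The smallest p these 10 and 9 libraries allow is 2.17e-05.

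In cells with a read, the read numbers of the called genes also differed. A control responsive cell with an Angptl7 read held a median of 59 reads of it, against 22 with E2. For Prph the medians were 130 and 68 reads, for Pcp4l1 230 and 252, and for Ndrg2 22 and 23, at a lower total depth with E2. The median CPM over all responsive cells, here of each cell's own reads without TMM, was 388 and 98.4 for Angptl7, 900.4 and 507 for Prph, 1509 and 2138 for Pcp4l1 and 63.2 and 149 for Ndrg2. For Angptl7 the share of cells with a read and the reads in such cells both went down, while for Ndrg2 the median number of reads in such cells was nearly the same.

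In cluster 1, 4 of the 8 genes passed the filter on low counts, and 0 of these 4 were called with E2 by edgeR, against 7 of 8340 genes (0.0839%). DESeq2 and limma-voom also called 0 of them, and 1, Crip1, had an unadjusted p below 0.05. Crip1 ranged from 32.4 to 1468 CPM, median 82.8, in the 10 control libraries and from 16.9 to 132 CPM, median 42.9, in the 7 E2 libraries, with a log2 fold change of -2.59 (SE 0.77, edgeR adjusted p = 0.312), and -2.48 without E2 library 15. The control values rested on libraries 9 and 6, at 1468 and 685 CPM. Pcp4l1 ranged from 211 to 578 CPM in control and from 225 to 789 CPM with E2 (log2 fold change 0.40, 95% interval -0.11 to 0.90, edgeR adjusted p = 0.812), and 0.22 without E2 library 15. Prph had a log2 fold change of -1.09 (95% interval -2.58 to 0.40, edgeR adjusted p = 0.822), and -1.78 without E2 library 15. Angptl7 had 0.65 (SE 0.94, edgeR adjusted p = 0.952), which became -2.09 (SE 0.92, edgeR adjusted p = 0.803) without E2 library 15. For all 8 genes the control and E2 cluster 1 libraries overlapped, and the share over all genes was not computed. Fez1, Cyb561, Ndrg2 and Fxyd1 had medians of 0, 0, 1.18 and 2.82 CPM in control and 0 with E2. Their overlap therefore lay near 0 and says nothing about E2.

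Whether the change with E2 differed between clusters was tested as an interaction. In edgeR 0 of the 8 genes were called, against 21 of 11398 genes (0.184%), DESeq2 and limma-voom called 0, and 2 genes, Fxyd1 and Crip1, had an unadjusted p below 0.05. Fez1, Ndrg2, Cyb561 and Fxyd1 did not pass the filter in cluster 1 alone and entered this test through their responsive reads. In the 42 E2-treated cluster 1 cells they had 0, 23, 1 and 2 reads, too few for the test to decide on these genes. The same libraries supply both clusters, and with the library as a replicate block 0 genes of the whole table were called by edgeR. Fxyd1 had the lowest adjusted p, with the change in cluster 1 lower than that in responsive cells by a log2 of -3.28 (SE 0.89, edgeR adjusted p = 0.0994), -3.32 without E2 library 15 and -3.08 (edgeR adjusted p = 0.573) with the block. It ranged from 1.02 to 14.5 CPM in control cluster 1, and with E2 it was at 0 in 5 of 7 libraries and had 2 reads in all. For Crip1 the interaction was -2.30 (SE 0.75, edgeR adjusted p = 0.185), -2.34 without E2 library 15 and -1.08 (SE 0.68, edgeR adjusted p = 0.778) with the block. For the 4 genes called in responsive cells, the interaction was -0.69 for Prph (95% interval -1.92 to 0.55), -0.23 for Pcp4l1 (-0.72 to 0.25), -1.43 for Ndrg2 (-3.22 to 0.36) and 1.48 for Angptl7 (-0.20 to 3.17), the last being -0.94 without E2 library 15 and -0.15 with the block. Without E2 library 15 it was -1.25 for Prph, -0.39 for Pcp4l1 and -1.37 for Ndrg2, and with the block -0.85, -0.27 and -0.81. A different response of these genes in cluster 1 was not detectable with 39 E2-treated cells, and a like response is not shown either.

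The number of the 8 genes with a read per cell summarises their co-detection. A control responsive cell had a median of 6 (range 3 to 8) and an E2 responsive cell a median of 6 (2 to 8). Averaged over libraries, control cells had 5.83 ± 0.207 genes (SD, n = 10) and E2 cells had 5.64 ± 0.225 (SD, n = 9). In cluster 1 the median was 3.5 in control and 3 with E2. At least 6 genes were seen in 136 of 203 control (67.0%) and 132 of 218 E2 responsive cells (60.6%), in 8 of 126 control cluster 1 cells (6.35%) and in 0 of 42 E2 cluster 1 cells. All 8 genes were seen together in 9 control and 5 E2 responsive cells and in no cluster 1 cell. At 20000 reads per cell, at least 6 genes were seen in 42.4% of control and 36.2% of E2 responsive cells and in 1 control cluster 1 cell, and all 8 in 3 control and 0 E2 responsive cells. The 8 cluster 1 cells with at least 6 genes came from 6 control libraries, and 1 of them was outside cluster 1 in the labels at k = 3.

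**Figure D4:**
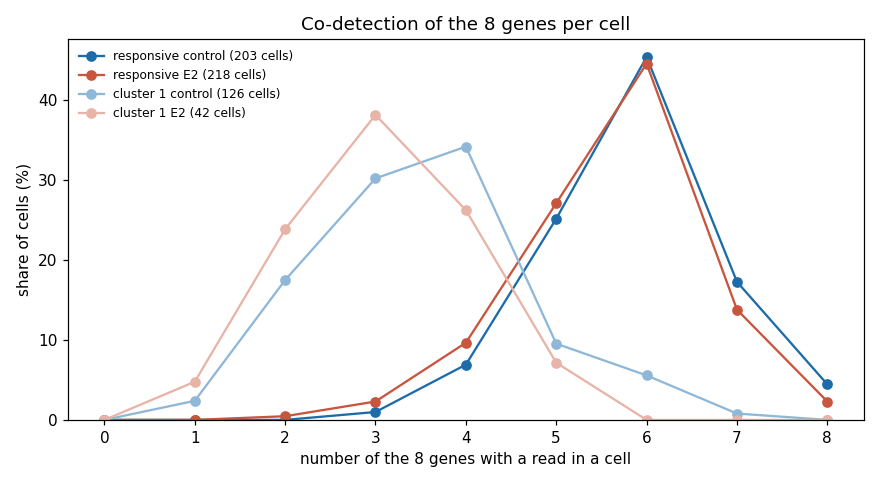
Share of cells (percent) by the number of the 8 genes with a read, from 0 to 8, in control and E2-treated responsive and cluster 1 cells. Responsive cells peaked at 6 genes (45.3% of control and 44.5% of E2 cells) and cluster 1 cells at 4 genes in control (34.1%) and 3 with E2 (38.1%).

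For each pair, the responsive cells with reads of both genes were set against the product of their shares within each library. With all reads, the ratio of these ranged from 0.938 to 2.13 over the pairs and treatments. Pairs with Crip1 or Pcp4l1 were held near a ratio of 1, since both had a read in at least 99.5% of responsive cells of each treatment. Fez1 and Cyb561, the rarest of the 8, were together in 10 control cells, where the product gives 7.45, and in 10 E2 cells, where it gives 4.69. Ndrg2 and Fxyd1 were together in 127 control cells against 120.1, and in 154 E2 cells against 149.9. Fez1 and Fxyd1 were together in 33 control cells against 33.9 and in 36 E2 cells against 38.3, and at 20000 reads per cell in 16 against 21.8 and in 13 against 19.5. Cyb561 and Fxyd1 at that depth were together in 22 control cells against 18.9 and in 6 E2 cells against 11.7. These are counts over cells of the same libraries, small for the rare genes, and carry no test.

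Correlation across cells depended on which deposited values were used. In normalised counts, centred within libraries, the 28 pairs of the 8 genes had a median Pearson r of 0.028 (range -0.140 to 0.181) over 203 control and 0.056 (-0.136 to 0.232) over 218 E2 responsive cells. The median of the same 8 genes with 10257 other genes was 0.016 and 0.014. In the deposited imputed values, which the authors used for clustering, the same pairs had a median of 0.660 (-0.228 to 0.935) in control and 0.428 (-0.442 to 0.797) with E2, and the median with other genes was 0.219 and 0.222. Pcp4l1 and Ndrg2, for example, had an r of 0.149 in counts and 0.935 in imputed values over control cells. Ndrg2 and Angptl7 had -0.055 and 0.355 in control, and -0.028 and -0.442 with E2. All points share depth, library preparation and, in imputed values, the smoothing over similar cells.

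**Figure D5:**
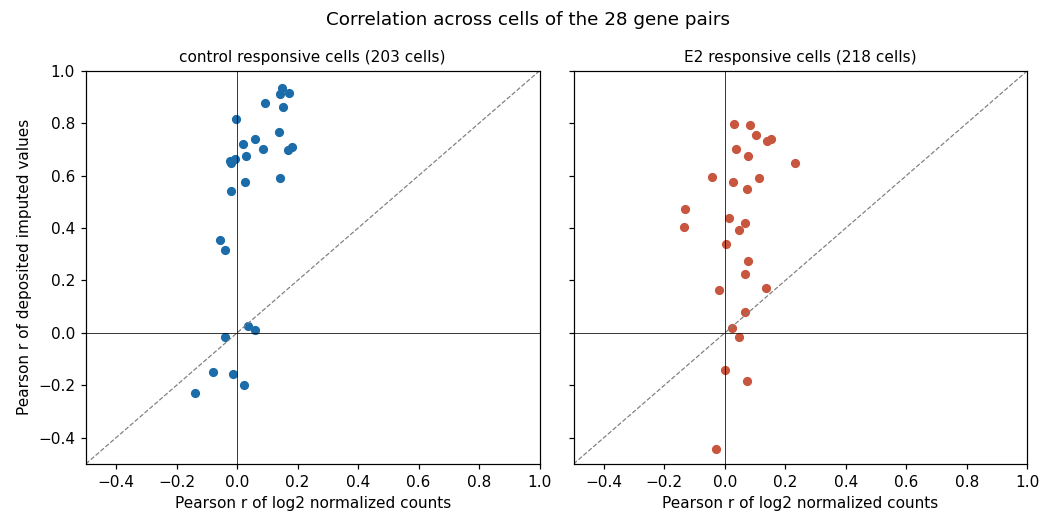
Pearson r across responsive cells of the 28 pairs of the 8 genes, in log2 normalised counts (horizontal) and in the deposited imputed values (vertical), for control (left) and E2 cells (right), with a dashed line where both are equal. Most pairs stood near 0 in counts, with medians of 0.028 and 0.056, and far above the line in imputed values, with medians of 0.660 and 0.428.

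Relatives of the 8 genes were counted from lists that group each with its family. Of 5 tested intermediate filament genes, Prph was the one called with E2. Vim and Lmna, the relatives with the highest levels in responsive cells, had log2 fold changes of -0.14 (SE 0.15) and 0.05 (SE 0.28). Vim also differed by -0.35 (log2) between cluster 1 and responsive cells, where Prph differed by -4.32. Of 6 genes of the Fez and kinesin list 0 were called by edgeR, with Kif5b, a motor subunit, at 0.24 (SE 0.18) and Klc1, a light chain, at -0.77 (SE 0.28, edgeR adjusted p = 0.270). Fez2, the paralogue of Fez1, was at 36.6 CPM in control responsive cells and at 69.4 CPM in control cluster 1, opposite to Fez1. Of 5 genes of the Pcp4 and calmodulin list Pcp4l1 was the one called, and Calm2, a calmodulin gene, was at 0.02 (SE 0.22).

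In the Ndrg family 2 of 3 tested genes were called, in opposite directions. Ndrg1, a relative that is known as a hypoxia-responsive gene, fell from a mean of 962 CPM to 536 CPM (log2 fold change -0.84, SE 0.13, edgeR adjusted p = 0.00044), while Ndrg2 rose. Ndrg3 was at -0.19 (SE 0.21). The angiopoietin-like list had 2 of 2 tested genes called, also in opposite directions. Angptl4, an inhibitor of lipoprotein lipase, rose from 13.6 CPM to 62.4 CPM (log2 fold change 2.20, SE 0.52, edgeR adjusted p = 0.0248), while Angptl7 fell. No gene of the cytochrome b561 and ascorbate list (4 tested), of the Fxyd and sodium pump list (8 tested) or of the Crip and Csrp list (4 tested) was called by edgeR. Of these, Cyb561d2 was at -0.19 (SE 0.47), Pam at -0.02 (SE 0.20), Atp1b1 at -0.22 (SE 0.12), Atp1b3 at 0.27 (SE 0.17), Csrp2 at 0.82 (SE 0.23, edgeR adjusted p = 0.0924) and Crip2 at 0.03 (SE 0.46). Of the neuron markers 3 were tested and 0 were called by edgeR, with Ncam1 at 1.33 (SE 0.41, edgeR adjusted p = 0.131).

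The genes whose log2 CPM followed each of the 8 most closely over 36 sums of library and cluster were found among 10597 genes. For Prph they were Ptgis, Fn1 and Igfbp4 (Pearson r 0.947, 0.931 and 0.929), for Pcp4l1 Lgals1, Acot1 and 4930502E18Rik (0.941, 0.939 and 0.927), and for Ndrg2 Fbln1, Aqp5 and Acot1 (0.926, 0.921 and 0.920). For Crip1 they were the metallothioneins Mt1 and Mt2 and Ptgis (0.991, 0.989 and 0.979), and for Fxyd1 Crip1, Mt2 and Ptgis (0.960, 0.956 and 0.953). For Angptl7 they were Ndrg1, Prph and Fn1 (0.921, 0.908 and 0.904), for Fez1 Acot1, Cldn3 and Htatip2 (0.923, 0.921 and 0.916), and for Cyb561 Lbp, Kdr and Acot1 (0.894, 0.878 and 0.870). These values are descriptive, and the sums share the division into clusters that chose the 8 genes.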

How the data were processed

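Estimated counts per gene and cell were deposited by the authors, made with kallisto (version 0.44.0 in the submitters' processing notes, which also name GRCm38), summed to genes with tximport and filtered for cells and genes with scater. The authors also deposited log2 values scaled with scran and imputed with MAGIC (the log base, not stated, was taken as 2), and cell metadata with the percent of mitochondrial reads, the scran size factor as a ratio, the monocle pseudotime score and state, and SC3 labels. The deposited label 2 at k = 2 is cluster 1 here. Whole numbers, with entries of 0 included, made up 90.1% of the entries of the table of counts. Total reads were 3867791 to 5078340 per control and 2693258 to 4037847 per E2 library.

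Counts were summed per library and cluster (at least 3 cells), rounded to whole numbers, and tested over all genes with edgeR 4.0.16 in R 4.3.3 (TMM, filterByExpr, quasi-likelihood). SE is the absolute log2 fold change over the square root of F, and 95% intervals are 1.96 SE either side. Shares were compared by exact permutation of libraries. Alternatives were DESeq2 1.42.0, limma-voom (limma 3.58.1), no filter, 20000 reads per cell, at least 5 cells, labels at k = 3, a library block and leaving out libraries; leaving out E2 library 15 throughout was added after seeing the data. The genes and lists were chosen with earlier results of these data known. Named relatives are those called with E2, or else the 2 with the highest CPM per family, together with the 3 genes most correlated with each of the 8 (1 relative is not reported here); Fez2, Ndrg3 and the neuron markers were named after their values were seen. The fits were tested on simulated data.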

Additional observations from a re-analysis of the deposited data

Results flagged for a closer look

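Levels of the 8 genes were searched for a library far from the others in 31 groups of 7 to 10 libraries, and 9 values stood out. Chance gives about 1 in 20 for normally distributed values. Some cluster 1 groups were mostly at 0, where 1 library with a read is flagged whatever its level. The 9 values can therefore not be set against that rate. In E2 responsive cells, library 12 had 80.3 CPM of Fez1 and library 15 had 762 CPM of Crip1. In E2 cluster 1, library 15 had 350 CPM of Angptl7, library 20 had 132 CPM of Crip1 and library 19 had 1.71 CPM of Cyb561, the other 6 being at 0. In control cluster 1, library 9 had 1468 CPM of Crip1, library 6 had 121 CPM of Angptl7, library 1 had 1.71 CPM of Fez1 and library 10 had 1.61 CPM of Cyb561. The values of Fez1 and Cyb561 in cluster 1 rest on 5 and 6 reads in all.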

How the results depend on the processing

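Prph, Pcp4l1, Ndrg2 and Angptl7 kept their call and direction with E2 in responsive cells under each alternative run, and 4 of the 8 genes were called with any library left out. Over the whole table, DESeq2 called 236 genes against 141, and leaving out a library gave 107 to 141. Fez1 reversed to -0.11 without E2 library 12 (range -0.11 to 0.48). In cluster 1 the genes called numbered 52 with DESeq2, 1 without a filter and 0 at 20000 reads per cell, against 7, and 1 to 9 with a library left out. Angptl7 there reversed to -1.86 with DESeq2, -1.32 with limma-voom, and -2.09 both with at least 5 cells and without E2 library 15 (range with a library left out -2.09 to 1.08). The interaction gave 109 genes with DESeq2, 13 with limma-voom, 10 at 20000 reads and 0 with the library as a block, against 21. Of the 8 it gave 0 in each, among them the 4 that did not pass the filter in cluster 1 alone. Angptl7 in the interaction reversed to -0.078 with limma-voom, -1.03 with at least 5 cells, -0.15 with the block and -0.94 without E2 library 15, and Fez1 to 0.62 with limma-voom. Shares of cells called 94 genes at 20000 reads, 95 without E2 library 15, 189 with at least 2 reads and 243 with labels at k = 3, against 219, each of 10265 genes. Of the 8 genes 2 were called with at least 2 reads (Angptl7 and Prph, not Ndrg2), 2 with labels at k = 3 (Ndrg2 and Angptl7) and 0 without E2 library 15, against 1. The difference in share reversed to -1.72 points for Fez1 and 0.111 points for Pcp4l1 at 20000 reads, and to 0.528 points for Pcp4l1 with at least 2 reads. Genes per responsive cell were 5.33 in control and 5.05 with E2 at 20000 reads, and 5.38 with E2 at 2 reads. The median pair correlation moved to 0.660 in control and 0.428 with E2 in imputed values. The cause of these shifts was not tested. No paired analysis was possible because the control and E2 libraries carry different column numbers, and the block above compares clusters of the same library. Depth limits Fez1, Cyb561 and all cluster 1 comparisons.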

Other observations

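The levels of the 8 genes also varied among the states that monocle assigned along the trajectory of cells, given here as CPM of summed reads, without TMM scaling and without a test. State 2 held 143 control responsive cells and state 5 held 151 E2 responsive cells. Prph was at 1086 CPM in the first and 631 CPM in the second, Angptl7 at 546 and 262 CPM, Pcp4l1 at 1694 and 2392 CPM and Ndrg2 at 129.99 and 241 CPM. These groups of cells differ in treatment as well as in state. State 4 held 21 control and 43 E2-treated cells. There Prph was not lower with E2, at 755 CPM in control and 796 CPM with E2. Angptl7 was at 451 and 197 CPM, Pcp4l1 at 1514 and 2443 CPM and Ndrg2 at 85.9 and 222 CPM. State 7, with 14 control cells, had the highest Prph among control states, at 1389 CPM, and 609 CPM of Angptl7. The 4 E2-treated cells of state 2 had 1625 CPM of Prph and 693 CPM of Angptl7, beside 2995 CPM of Pcp4l1.

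Along pseudotime, Pcp4l1 had a Spearman rho of 0.433 over 203 control responsive cells and 0.057 over 218 E2 cells. For Crip1 the values were 0.294 and -0.020, for Prph 0.251 and -0.123, and for Fxyd1 0.145 and 0.137. State 1 held 148 control cells, 22 of them responsive, and 41 E2-treated cells, 0 of them responsive, the rest being cluster 1 cells. The control values of rho therefore include cells of state 1 and the E2 values do not, so they cover unlike stretches of the trajectory. The pseudotime was built from imputed values of the same cells, so these are descriptions, and the difference between treatments was not tested.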
